A study of Mus musculus with 4 samples.

Results

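Collagens are the fibrous and sheet-forming proteins of the extracellular matrix, each built from 3 polypeptide chains wound into a triple helix. The mouse genome encodes many chains, and the 43 collagen chain genes named by a symbol of the form Col, number, a, number were taken here from the 23235 genes of each table. They comprise 11 fibrillar chains, 6 type IV chains, 6 type VI chains, 9 fibril-associated chains and 11 others. The type XXVI chain stands in the tables under its older symbol Emid2 and was not counted as a member, at 0.0608, 0.00904, 0.964 and 0.794 RPKM in the 4 libraries in the order used for every gene below. That order is luminal epithelium of control, luminal epithelium labelled knockout, stroma of control and stroma labelled knockout.

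RNA came from the uterus of pseudopregnant mice, mated with vasectomized males, on day 4, when the uterus is prepared for implantation without embryos. Luminal epithelium, the cell layer lining the cavity, and the stroma beneath it were cut out by laser capture. The controls carried floxed alleles of the homeobox genes Msx1 and Msx2 (strain Msx1f/f/Msx2f/f), and the others were labelled as uterine-specific knockouts (Msx1d/d/Msx2d/d). For the driver of the deletion, the exons removed and the age of the mice, the sources used here give nothing. The series describes 1 mouse per genotype and gives 1 library for each genotype and compartment, so there was no replicate, no test between genotypes was possible, and genotype and animal cannot be told apart.

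Fibrillar collagens such as types I, III and V form the cable-like fibrils of connective tissue and are made mainly by fibroblasts and other mesenchymal cells. Type IV collagen forms the meshwork of basement membranes, on which epithelium and vessel walls sit, and type VI collagen forms beaded microfilaments between the basement membrane and the fibrils. In the uterus the stromal matrix is remodelled around implantation as stromal cells become decidual cells. This is background and not a result of these data.

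The unit is RPKM, which divides reads by transcript length and library size, so levels of different chains can be set side by side. The estimated depth was 6.32 M reads in control luminal epithelium, 90.8 M in luminal epithelium labelled knockout, 42.7 M in control stroma and 61.3 M in stroma labelled knockout. In the same order, the level of Msx1 was 23.2, 13.6, 0.0467 and 0.0207 RPKM. That of Msx2 was 1.31, 2.06, 0.135 and 0.0564 RPKM. Msx2 thus went against the label in luminal epithelium, so the libraries are called labelled knockout and all directions depend on that label. Limits given with a ratio are 95% exact binomial limits on estimated reads. They cover counting error alone and say nothing of variation between mice.

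Collagen RNA was a feature of the stroma. The 43 chains summed to 427 RPKM in control stroma and 772 RPKM in stroma labelled knockout, against 20.6 and 26.1 RPKM in control and labelled knockout luminal epithelium. These sums were 0.509% and 1.02% of all RPKM in stroma, and 0.0255% and 0.0238% in luminal epithelium. Of the 43 chains, 25 reached 1 RPKM in at least 1 library and 18 stayed below 1 RPKM in all 4. In control stroma 23 chains were at 1 RPKM or more, and 3 of them made up 49.4% of the collagen sum. Col3a1, the single chain of type III collagen, was the highest in stroma and ranked 59 among all genes of the control and 27 in the library labelled knockout. The 2 tables were normalized separately, which bears on each comparison of levels between compartments.

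**Figure D1:**
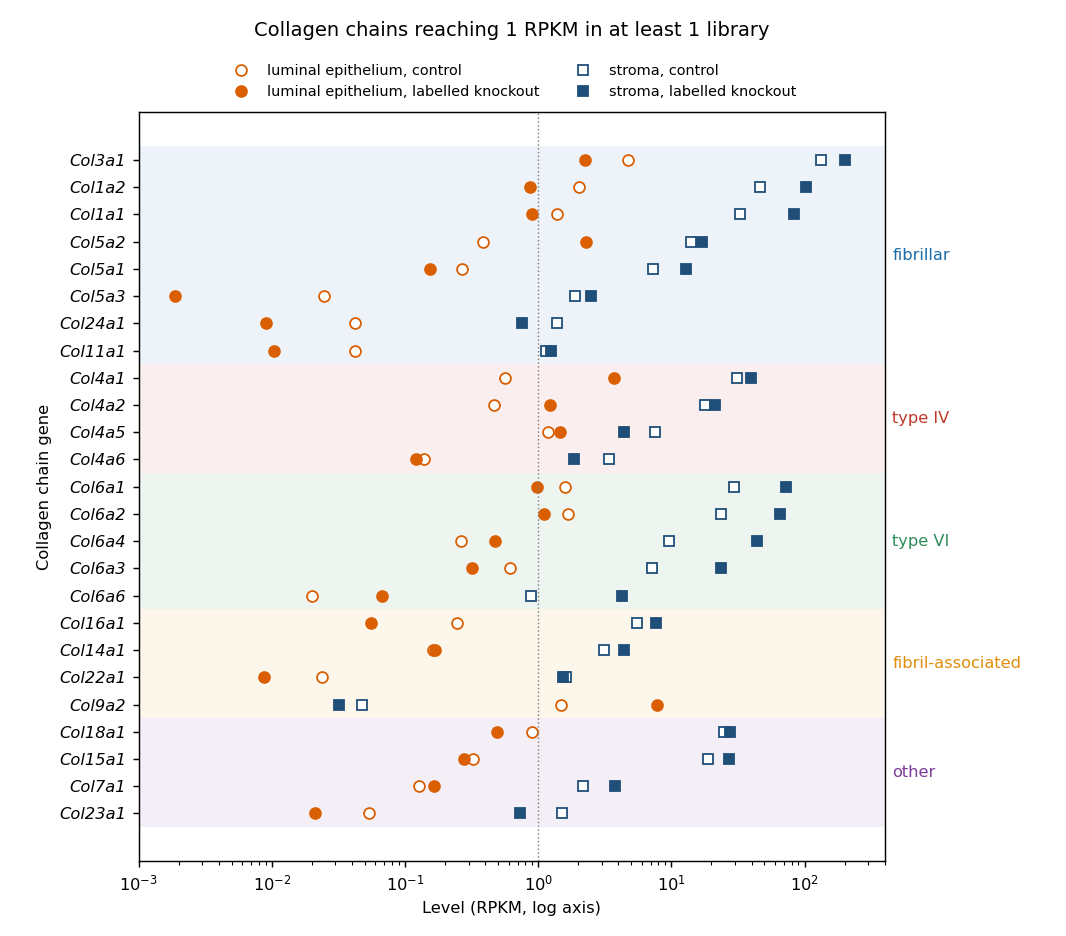
Level in RPKM, on a log axis, of the 25 collagen chains that reached 1 RPKM, grouped by type, with 1 point for each of the 4 libraries (open, control; filled, labelled knockout). Squares for stroma lie to the right of circles for luminal epithelium in every chain but Col9a2.

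The first comparison asked how the collagen chains of stroma labelled knockout differed from control. The 6 type VI chains were all higher, by 2.44 to 6.49 times, and the type I chains Col1a1 and Col1a2 by 2.54 and 2.21 times. The other major chains were higher by smaller ratios, the X-linked type IV chains Col4a5 and Col4a6 were lower, and so were the low chains Col24a1 and Col23a1. Calls of higher or lower needed a log2((knockout + 1)/(control + 1)) of at least 1 in size. They were made for genes whose 2 values averaged 1 RPKM or more. Of the 43 chains 24 passed that minimum. Among these, 7 were at least 2-fold higher, against 1.45% of all 7723 genes kept, and 0 were at least 2-fold lower, against 1.59%. Of the 7, Col6a6 passed that minimum only through the library labelled knockout, at 0.876 RPKM in control. The median log2 difference of the 24 chains was 0.40, with 19 above 0, beside a median of 0.07 over all genes kept, of which 64.2% were above 0.

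Type VI collagen is assembled from the products of Col6a1 and Col6a2 together with 1 more chain, classically that of Col6a3. Col6a4, Col6a5 and Col6a6 encode further chains related to that of Col6a3. Col6a1 was at 1.60, 0.971, 29.6 and 72.2 RPKM, its ratio in stroma being 2.44 (limits 2.36 to 2.52). Col6a2 was at 1.66, 1.10, 23.7 and 64.9 RPKM, a stromal ratio of 2.74 (limits 2.64 to 2.84). The companion chain Col6a3 was at 0.618, 0.319, 7.15 and 23.6 RPKM. In these 3 chains the stroma labelled knockout lay above the stroma of control while the luminal epithelium lay in the other order.

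Col6a4 showed the largest absolute level of the related chains, at 0.262, 0.474, 9.62 and 43.7 RPKM. Its stromal ratio was 4.55 (limits 4.37 to 4.73). Col6a6 was at 0.020, 0.0669, 0.876 and 4.25 RPKM, a stromal ratio of 4.85 (limits 4.22 to 5.59). The remaining gene of this cluster, Col6a5, stayed low, listed at 0 in control luminal epithelium and at 0.00652, 0.0402 and 0.261 RPKM in the others. Its ratio of 6.49 in stroma (limits 3.84 to 11.7) rested on about 15.6 estimated reads in control. In mm9 these 3 genes lie side by side on chromosome 9, Col6a6 from 105591747 to 105730415, Col6a5 from 105758400 to 105862974 and Col6a4 from 105892649 to 105999022. Col6a2 (76058501 to 76086149) and Col6a1 (76171537 to 76188789) are neighbours on chromosome 10, and Col6a3 is on chromosome 1. As a group the type VI chains summed to 71.0 RPKM in control stroma and 209 RPKM in stroma labelled knockout, or 16.6% and 27.0% of the collagen sum.

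The windows before the starts of 4 type VI genes are shown because these genes, on 3 chromosomes, were higher together in stroma. Each is the 250 bases before a RefSeq start in build GRCm38.p6, 5′ to 3′ on the gene's strand. Capitals mark the letters of 4 motifs on either strand: the TATA box letters TATAAA, the CCAAT box letters CCAAT, the GC box letters GGGCGG and the homeodomain core letters TAATTG. Positions are chr10:76726045-76726294 (minus) for Col6a1, chr10:76623405-76623654 (minus) for the downstream one of 2 starts of Col6a2, chr1:90843972-90844221 (minus) for Col6a3 and chr9:106096692-106096941 (minus) for Col6a4.
Col6a1: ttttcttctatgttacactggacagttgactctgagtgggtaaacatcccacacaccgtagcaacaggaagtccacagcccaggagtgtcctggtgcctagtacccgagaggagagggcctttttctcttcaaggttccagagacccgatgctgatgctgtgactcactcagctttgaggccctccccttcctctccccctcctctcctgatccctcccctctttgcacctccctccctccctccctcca
Col6a2: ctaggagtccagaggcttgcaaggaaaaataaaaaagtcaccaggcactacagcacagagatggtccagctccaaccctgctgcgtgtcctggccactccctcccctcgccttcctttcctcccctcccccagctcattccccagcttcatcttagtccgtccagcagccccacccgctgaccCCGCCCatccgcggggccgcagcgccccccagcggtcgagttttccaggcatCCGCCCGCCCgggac
Col6a3: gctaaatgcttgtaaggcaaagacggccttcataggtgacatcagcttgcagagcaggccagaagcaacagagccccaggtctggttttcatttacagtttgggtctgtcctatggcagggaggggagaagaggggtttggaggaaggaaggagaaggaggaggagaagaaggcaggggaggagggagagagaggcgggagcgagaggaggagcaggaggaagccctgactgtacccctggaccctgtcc
Col6a4: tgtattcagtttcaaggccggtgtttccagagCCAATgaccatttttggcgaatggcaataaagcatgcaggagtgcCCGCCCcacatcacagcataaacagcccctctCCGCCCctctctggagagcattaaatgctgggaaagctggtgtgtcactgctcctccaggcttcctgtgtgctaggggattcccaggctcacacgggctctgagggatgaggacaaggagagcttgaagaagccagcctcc

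The Col6a1 and Col6a3 windows held none of the 4 motifs. The window of Col6a2 held 3 matches of GGGCGG, of which 2 overlap, all read as CCGCCC on the strand shown, and that of Col6a4 held 2 matches of GGGCGG and 1 of CCAAT. The letters GGGCGG stood in 22 of 38 collagen windows, from 35 chains with an entry, and in 32.7% of all 32851 windows of that length. CCAAT stood in 13 of the 38 and 33.8% of all, TATAAA in 5 and 12.4%, and TAATTG in 3 and 7.17%. A match is a run of letters and not a shown site, and its absence says nothing of a factor.

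**Figure D2:**
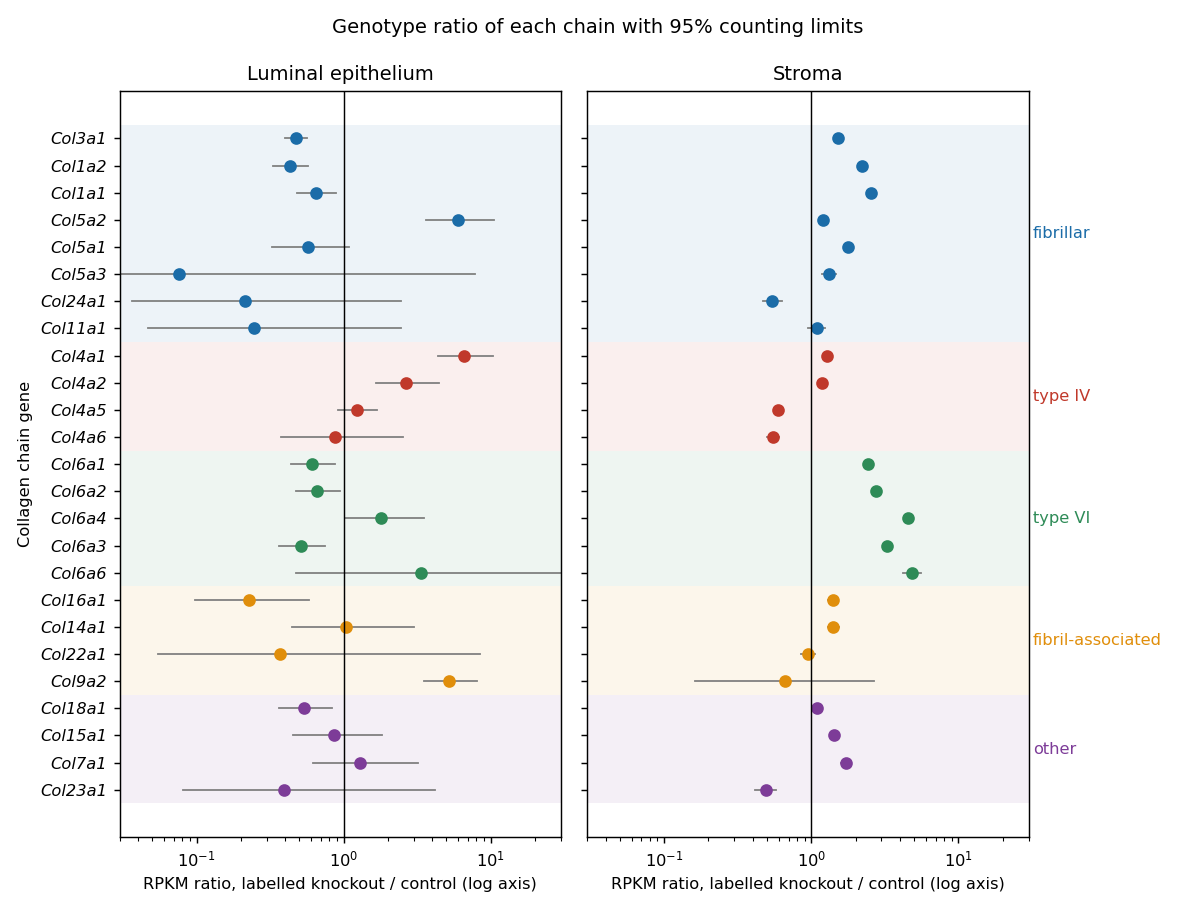
RPKM ratio of labelled knockout to control, on log axes, for the 25 chains that reached 1 RPKM, in luminal epithelium (left) and stroma (right). Lines are 95% counting limits from estimated reads. In stroma 18 chains have limits above 1 and 4 below 1, and in luminal epithelium 5 lie above and 8 below. Such limits were not counted over all genes, but 64.2% of genes kept in stroma and 61.9% in luminal epithelium were above 0.

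The 11 fibrillar chains made up 55.5% of the collagen sum in control stroma and 54.6% in stroma labelled knockout. Col1a1, the alpha-1 chain of type I, was at 1.38, 0.900, 32.9 and 83.7 RPKM, and its stromal ratio of 2.54 had limits from 2.48 to 2.60. Its partner Col1a2 was at 2.01, 0.872, 45.9 and 102 RPKM, a stromal ratio of 2.21 (limits 2.16 to 2.26). Col3a1, whose protein co-assembles into type I fibrils, was at 4.76, 2.25, 132 and 202 RPKM, with a stromal ratio of 1.53. Type I thus differed by more than type III between the stromal libraries. The ratio of Col3a1 to Col1a1 was 4.01 in control stroma and 2.41 in stroma labelled knockout (limits 3.91 to 4.11 and 2.38 to 2.44). A ratio within a library does not depend on how that library was scaled.

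Type V collagen sits inside type I fibrils and limits their width. Col5a1 was at 0.267, 0.154, 7.23 and 12.9 RPKM, a stromal ratio of 1.78. Col5a2 was at 0.382, 2.28, 14.1 and 17.1 RPKM, a stromal ratio of 1.21. Col5a3, the least abundant of the type V chains, was at 0.0245, 0.00186, 1.88 and 2.49 RPKM. Col5a1 relative to Col5a2 was 0.512 in control stroma and 0.755 in stroma labelled knockout (limits 0.487 to 0.538 and 0.730 to 0.781). Col11a1, a minor fibrillar chain best known from cartilage, was at 0.0421, 0.0104, 1.14 and 1.24 RPKM, and its stromal limits of 0.95 and 1.24 reached 1. Col24a1, a further minor fibrillar chain, was at 0.0424, 0.00908, 1.38 and 0.752 RPKM. Its stromal ratio of 0.544 made it the lone fibrillar chain of the 8 that reached 1 RPKM to be lower there.

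The type IV chain genes lie head to head in pairs in the genome, and the members of a pair had similar ratios in stroma. Col4a1 and Col4a2, the ubiquitous basement membrane chains, were slightly higher, at 30.9 and 39.5 RPKM for Col4a1 and 17.9 and 21.2 RPKM for Col4a2 in control stroma and stroma labelled knockout. Their stromal ratios were 1.28 and 1.18. Col4a5 was at 1.18, 1.45, 7.51 and 4.44 RPKM, and Col4a6, its neighbour on the X chromosome and a chain of smooth muscle and epithelial basement membranes, at 0.140, 0.122, 3.38 and 1.86 RPKM. Their stromal ratios were 0.592 (limits 0.554 to 0.632) and 0.551 (limits 0.500 to 0.608). Col4a3 and Col4a4, best known from the kidney filter, stood at 0.268 and 0.510 RPKM for the former and 0.274 and 0.522 RPKM for the latter in the stromal libraries, ratios of 1.90 and 1.90. The stromal ratios were thus closer within each of the 3 pairs than between them. Each pair's chain ratio within a library was 1.73 and 1.86 for Col4a1 to Col4a2, 0.978 and 0.977 for Col4a3 to Col4a4, and 2.22 and 2.38 for Col4a5 to Col4a6, in control stroma and stroma labelled knockout.

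In the deposited mm9 loci 2 bases separate Col4a1 (chromosome 8, 11198423 to 11312826) from Col4a2 (11312829 to 11449287). Between Col4a4 and Col4a3 on chromosome 1 there are 71 bases, and between Col4a6 and Col4a5 1342 bases. In RefSeq the starts of Col4a2, on the plus strand, and Col4a1, on the minus strand, bound a stretch of 22 bases at chr8:11312805-11312826 (GRCm38.p6). It is shown, on the plus strand, as the stretch between the starts of 2 genes read in opposite directions, with the GC box letters in capitals. Whether the 2 transcripts overlap across it was not determined.
Col4a2/Col4a1: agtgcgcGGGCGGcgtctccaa

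Fibril-associated collagens lie on the surface of fibrils. Col16a1 was at 0.248, 0.0559, 5.54 and 7.72 RPKM and Col14a1, which takes part in fibril spacing, at 0.162, 0.167, 3.09 and 4.37 RPKM. Their stromal ratios were 1.39 and 1.41. Col22a1, known from tissue junctions, was at 0.0236, 0.00874, 1.61 and 1.54 RPKM, and its stromal limits of 0.857 and 1.06 reached 1. Among the remaining chains, Col15a1 and Col18a1, proteoglycan collagens of basement membranes, had levels of 0.322, 0.276, 19.0 and 27.0 RPKM for the former and 0.906, 0.490, 25.0 and 27.3 RPKM for the latter. Col7a1, the anchoring fibril chain, was at 0.128, 0.164, 2.18 and 3.77 RPKM, a stromal ratio of 1.73 (limits 1.60 to 1.88). Col23a1, a membrane-spanning collagen, was at 0.0535, 0.0211, 1.5 and 0.735 RPKM, 2.04-fold lower in stroma labelled knockout as a plain ratio. With the pseudocount its log2 difference of -0.53 fell short of a call.

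**Figure D3:**
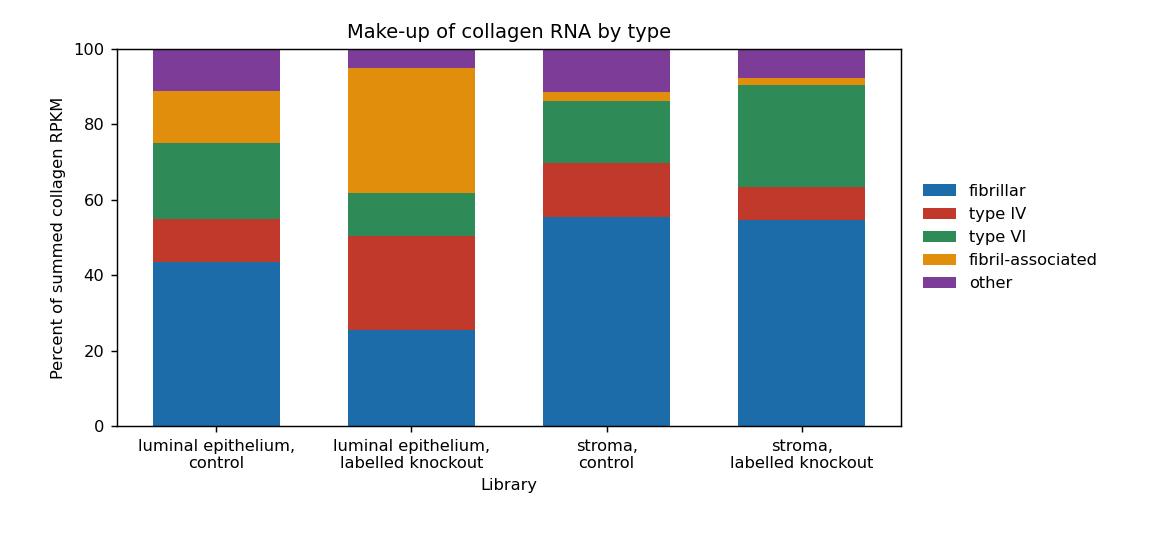
Percent of the summed collagen RPKM held by each type in each of the 4 libraries, as stacked bars. Type VI takes 16.6% in control stroma and 27.0% in stroma labelled knockout, and the fibril-associated chains 13.6% and 33.3% in luminal epithelium of control and labelled knockout.

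Markers of the cells that the stromal captures could hold were read beside these values. The 11 stromal markers that are not collagens, such as the proteoglycan Dcn and the receptor Pdgfra, summed to 191 and 188 RPKM in control and labelled knockout. All 11 were kept, 1 was at least 2-fold higher, 0 were at least 2-fold lower and their median difference was 0.10. Over all genes kept in stroma 1.45% were at least 2-fold higher, 1.59% lower and 64.2% above 0, with a median of 0.07. Smooth muscle markers summed to 18.3 and 21.1 RPKM, with 3 of 4 kept genes above 0, and endothelial markers to 62.6 and 75.6 RPKM, with 3 of 9 above 0. Of the endothelial sums Cd34 alone made up 20.2 and 37.4 RPKM, while 6 of the 9 kept genes were below 0. No smooth muscle or endothelial marker was listed at 0 in stroma. Leukocyte markers were lower, at 111 and 49.0 RPKM, with 0 of 7 kept genes above 0. Epithelial markers summed to 1.72 and 0.513 RPKM, with Krt7 listed at 0 in control. Mesothelial markers summed to 3.39 and 4.13 RPKM, of which Wt1 made up 3.38 and 4.05 RPKM, with Msln and Upk3b listed at 0 in control. Glandular markers summed to 0.20 and 0.0417 RPKM. The part of these cell types in the collagen differences was not tested, and in such captures more cells of a type and more RNA per cell cannot be told apart.

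The second comparison asked the same of luminal epithelium, where collagen levels were low. Against control, 3 chains stood out as higher in the library labelled knockout, Col9a2, Col4a1 and Col5a2, while the abundant stromal chains Col3a1, Col1a1, Col1a2, Col6a1 and Col6a2 were lower. Of the 43 chains 9 passed the minimum of expression. Of these 3 were at least 2-fold higher, against 5.03% of all 7736 genes kept, and 0 at least 2-fold lower, against 1.99%. These calls use the pseudocount, with which Col1a2 and Col3a1 stood at -0.69 and -0.82, although their plain RPKM ratios were 0.433 and 0.473. Of the 3, Col4a1 and Col5a2 passed that minimum only through the library labelled knockout, at 0.562 and 0.382 RPKM in control. The count of 3 thus depends in part on the filter. Col28a1, at 0.742 and 0.00961 RPKM, fell short of the minimum, and with the pseudocount its log2 difference was -0.79. The median log2 difference of the 9 was -0.33 beside 0.10 over all genes kept. Of all genes kept, 389 were higher and 154 lower, or 312 and 232 after scaling by sums without the 50 most abundant genes. That scaling shifted the median of all genes by -0.19, and scaling by the upper quartile by -0.13. Relative to the median of all genes the chains had a median of -0.43. The control held about 676 estimated collagen reads in all, against 11581 in the library labelled knockout, so limits are wide.

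Col9a2 encodes a chain of type IX collagen, a fibril-associated collagen best known from cartilage. Its level was 1.5, 7.81, 0.0479 and 0.0318 RPKM in the order of libraries used above. Both epithelial libraries lay above both stromal ones. The ratio in luminal epithelium was 5.22 (limits 3.55 to 8.03), from about 25.8 and 1932 estimated reads. Its partner chains in type IX collagen were near or at 0. Col9a1 was listed at 0 in all 4 libraries, and Col9a3 was at 0.110, 0.0490, 0.0320 and 0.0537 RPKM. Col9a2 alone held 29.9% of the collagen sum in luminal epithelium labelled knockout. The 250 bases before its RefSeq start, chr4:121039316-121039565 (plus strand, GRCm38.p6), are shown as those of the 1 chain, among the 25 that reached 1 RPKM, with a higher level in both epithelial libraries than in both stromal ones, with 2 matches of GGGCGG in capitals.
Col9a2: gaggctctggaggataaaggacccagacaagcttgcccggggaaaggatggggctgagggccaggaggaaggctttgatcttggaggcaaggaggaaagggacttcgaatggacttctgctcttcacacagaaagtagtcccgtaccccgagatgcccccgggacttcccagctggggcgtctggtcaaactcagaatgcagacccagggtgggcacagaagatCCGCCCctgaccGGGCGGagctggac

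In luminal epithelium Col4a1 was at 0.562 and 3.69 RPKM in control and labelled knockout, a ratio of 6.57 (limits 4.36 to 10.4). Col4a2 was at 0.463 and 1.23 RPKM, a ratio of 2.65 (limits 1.67 to 4.48), and fell short of the minimum. The ratio of Col4a1 to Col4a2 was 3.01 in luminal epithelium labelled knockout (limits 2.76 to 3.28), above the 1.73 and 1.86 of the stromal libraries. In control luminal epithelium it was 1.21 (limits 0.628 to 2.38), and these limits take in the stromal ratios. Col4a5, the type IV chain with the highest level in control luminal epithelium, had a ratio of 1.22 whose limits reached 1 (0.911 to 1.68).

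Col5a2 was at 0.382 and 2.28 RPKM in luminal epithelium, a ratio of 5.96 (limits 3.63 to 10.6). Its neighbour Col3a1 lies 24.6 kb away on chromosome 1 and was at 4.76 and 2.25 RPKM, 2.11-fold lower in the library labelled knockout. The ratio of Col3a1 to Col5a2 was 12.5 in control luminal epithelium, 9.35 in control stroma and 11.8 in stroma labelled knockout, but 0.990 in luminal epithelium labelled knockout (limits 0.913 to 1.07). Col5a1, a usual partner of Col5a2 in type V collagen, was at 0.267 and 0.154 RPKM there. The lower chains had ratios of 0.433 for Col1a2, 0.651 for Col1a1, 0.609 for Col6a1, 0.661 for Col6a2, 0.516 for Col6a3 and 0.541 for Col18a1, each with limits below 1. In the authors' deposited table no chain named here as higher had a q-value under 0.05 in luminal epithelium, with 0.132 for Col4a1, 0.196 for Col5a2 and 0.231 for Col9a2. In stroma the lowest q-value among chains in the authors' deposited table was 0.538, for Col6a6. With 1 library per genotype, these q-values cannot measure variation between mice of a genotype.

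**Figure D4:**
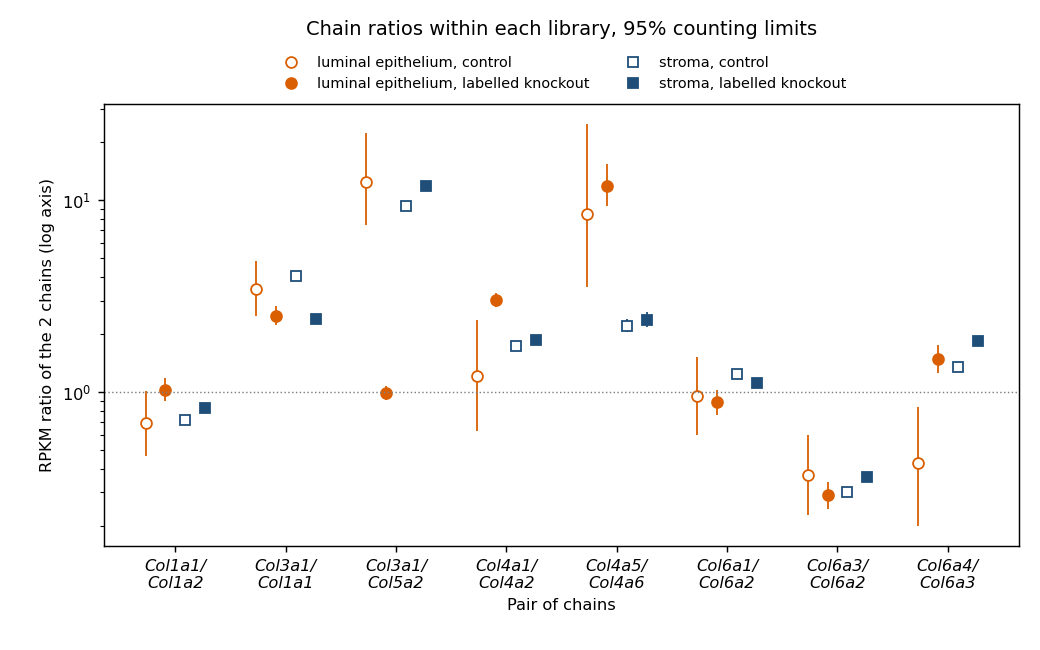
RPKM ratio of 1 chain to another within each library, on a log axis, for 8 pairs of chains, with 95% counting limits as lines (open, control; filled, labelled knockout). The ratio of Col3a1 to Col5a2 lies between 9.35 and 12.5 in 3 libraries and at 0.990 in luminal epithelium labelled knockout.

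Luminal epithelium was also set against stroma within each genotype, across tables normalized separately. In control 18 chains passed the minimum of expression, of which 0 were at least 2-fold higher in luminal epithelium, against 19.6% of all 8030 genes kept, and 18 were at least 2-fold lower, against 12.1%. Their median log2 difference was -3.33, beside 0.29 over all genes kept. In the libraries labelled knockout 20 chains passed, of which 1 was at least 2-fold higher, against 20.7% of 8350 genes, and 19 at least 2-fold lower, against 10.7%. Their median was -3.45, beside 0.32 over all genes. The chain on the higher side was Col9a2. Chains at 1 RPKM or more numbered 7 in each epithelial library, against 23 in control stroma and 22 in stroma labelled knockout. Most chains thus passed the minimum through their stromal level, which favours a call of lower. The counts of lower chains were therefore largely set by the filter. Calls over all genes moved with the scaling, from 1574 higher and 973 lower to 943 and 1436 in control and from 1730 and 890 to 1030 and 1411 in labelled knockout after division by the upper quartile, which moved the medians by -0.43 and -0.48.

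For the 24 chains with a mean of at least 1 RPKM in stroma, the epithelial level was expressed as a percent of the stromal level. In control it ran from 1.31% (Col5a3) to 15.8% (Col4a5) with a median of 3.66%. In the libraries labelled knockout it ran from 0.0749% to 32.6% for the same chains, with a median of 1.35%. The low end of both ranges, Col5a3, rested on about 0.918 and 1.0 estimated reads in the epithelial libraries. The percent was lower in labelled knockout than in control for 19 of the 24 chains. The other 5 were Col4a1, Col4a2, Col4a5, Col4a6 and Col5a2. This share was not computed over all genes. A higher stromal level alone lowers the percent, so the count partly restates the stromal comparison. Col4a1 stood at 1.82% in control and 9.35% in labelled knockout, and Col5a2 at 2.71% and 13.4%, whereas Col3a1 stood at 3.61% and 1.12%. As sums, the type VI chains stood at 5.86% and 1.41% and the fibrillar chains at 3.77% and 1.54%.

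The 11 stromal markers that are not collagens stood at a median of 3.50% in control and 0.965% in labelled knockout, and 9 of the 11 had the lower percent in labelled knockout. Their sum in luminal epithelium was 8.30 and 5.0 RPKM, of which Nr2f2 made up 2.44 and 3.36 RPKM, and Tcf21 was listed at 0 in both. Smooth muscle markers summed to 5.04 and 0.727 RPKM in luminal epithelium with Lmod1 at 0 in both, and leukocyte markers to 15.8 and 2.69 RPKM. Endothelial markers were near 0, at 0.503 and 0.472 RPKM, with Emcn and Erg at 0 in both libraries and Kdr, Tek and Esam at 0 in control. Epithelial markers summed to 418 and 470 RPKM, with 0 of 10 at 0. The part of stromal RNA in the epithelial collagen values was not tested.

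**Figure D5:**
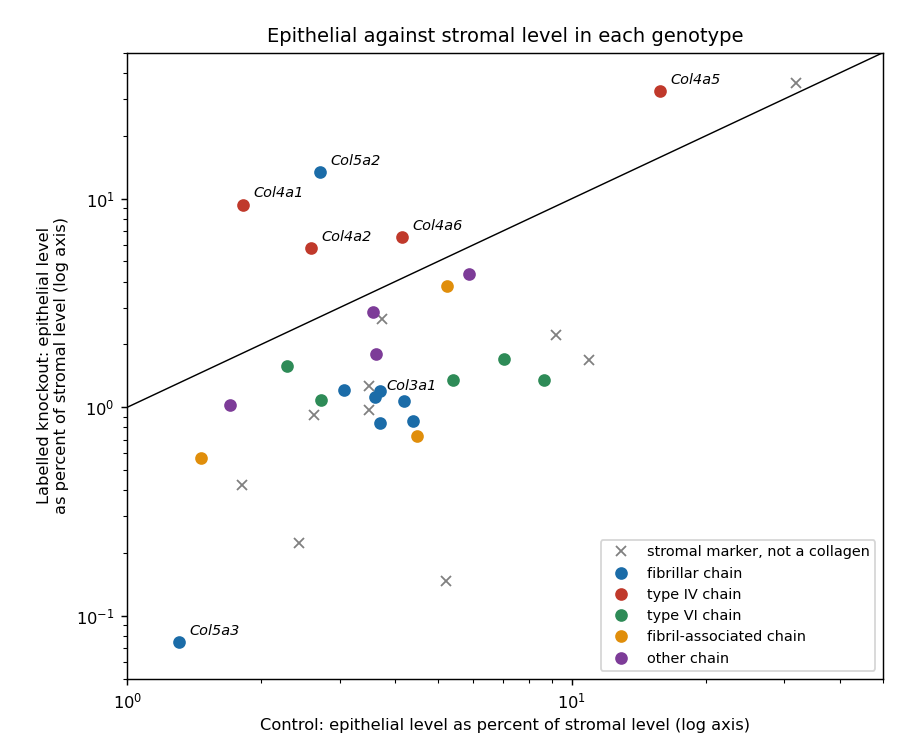
Epithelial level as a percent of the stromal level in control (x axis) and labelled knockout (y axis), on log axes, for the 24 chains with a mean of at least 1 RPKM in stroma and for stromal markers that are not collagens and are above 0 in both epithelial libraries. Points above the line of equality are the 4 type IV chains, Col5a2 and 1 marker, Nr2f2.

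Genes that make, modify, bind and degrade collagen were read from 4 lists. Their counts stand beside those of all genes kept: in stroma 1.45% were at least 2-fold higher, 1.59% lower and 64.2% above 0, with a median of 0.07. In luminal epithelium 5.03% were higher, 1.99% lower and 61.9% above 0, with a median of 0.10. In stroma 12 of 15 folding and modification genes were kept, 0 were at least 2-fold higher or lower and 9 were above 0, a share near that of all genes, with a median of 0.28. Serpinh1, the chaperone of the collagen triple helix, was at 3.42, 3.18, 42.8 and 61.6 RPKM. Plod1, a lysyl hydroxylase, was at 0.758, 1.26, 4.30 and 7.12 RPKM. P4ha2, a catalytic subunit of prolyl 4-hydroxylase, had its larger difference in luminal epithelium, at 4.63, 18.8, 1.88 and 3.24 RPKM. P4hb, the other subunit of that enzyme and a general folding catalyst, was at 20.2, 31.1, 23.3 and 28.1 RPKM, and the proline isomerase gene Ppib at 13.6, 19.8, 15.8 and 14.8 RPKM. In luminal epithelium 7 of 15 of this list were kept, 1 was at least 2-fold higher and 0 lower, with a median of 0.36.

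Of 13 processing and cross-linking genes 6 were kept in stroma and none was kept in luminal epithelium. The median of the 6 was 0.15, beside 0.07 over all genes kept in stroma. Of the 6, 1 was at least 2-fold higher and 0 lower, against 1.45% and 1.59% of all genes kept. The higher one was Loxl2, a lysyl oxidase that cross-links collagen and acts on the type IV network, at 0.248, 0.521, 4.69 and 11.7 RPKM. Loxl1, a family member tied to elastic fibres, was at 0, 0.00748, 1.60 and 1.21 RPKM. Adamts2 and Bmp1, which remove the ends of procollagen, had levels of 0.308, 0.924, 1.73 and 2.40 RPKM and of 0.265, 1.26, 3.80 and 5.10 RPKM. Pcolce, which enhances the latter step, was at 0.224, 0.113, 4.69 and 4.17 RPKM.

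Collagen receptors had 4 of 10 genes kept in stroma, 0 at least 2-fold higher or lower, and a median of 0.09. Over all genes kept in stroma 1.45% were higher, 1.59% lower and 64.2% above 0, with a median of 0.07. In luminal epithelium 5.03% of all genes kept were higher. Ddr1, a receptor tyrosine kinase of epithelial cells that binds collagen, was at 4.99, 11.0, 0.831 and 0.712 RPKM and was the 1 receptor of 2 kept that was called higher in luminal epithelium. Its log2 difference of 1.0 lay on the threshold and the call ended under either scaling, at 0.86 after division by the upper quartile and 0.79 by sums without the 50 most abundant genes, both tried after seeing the data. Its stromal relative Ddr2 was at 0.365, 0.266, 5.52 and 5.75 RPKM. The integrin chains Itgb1 and Itga1 had levels of 8.22, 11.2, 12.9 and 14.2 RPKM and of 0.104, 0.0261, 2.59 and 1.83 RPKM. Mrc2, which takes up collagen fragments, was at 0.110, 0.0559, 1.74 and 2.63 RPKM. Of 7 degradation genes 3 were kept in stroma, all above 0 and 0 at least 2-fold apart. They were Mmp2, at 15.8 and 22.7 RPKM in the stromal libraries, Mmp14, the membrane protease that activates it, at 8.72 and 9.97 RPKM, and Ctsk at 3.23 and 4.16 RPKM.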

How the data were processed

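Luminal epithelium and stroma of mouse uterus were profiled by RNA sequencing, 1 library per genotype and compartment. The values used are the deposited RPKM, computed by the authors, 1 column per library, per the file headers. The deposited tables also hold the authors' comparison of genotypes as a log2 fold change, a test statistic, a p-value and a q-value. Build mm9, Cufflinks 2.0.2, TopHat2 2.0.5, TopHat and CASAVA 1.8.2 are named, per the submitters' processing notes. For their roles, for filters and for the use of strand, the sources used here give nothing.

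From the RPKM, log2 differences with a pseudocount of 1 RPKM were taken over genes whose pair of values averaged 1 RPKM or more, which understates low genes. Chains that reached 1 RPKM in any library were named with all 4 values. Up to 5 genes of each partner list with the largest differences were named. The members and lists were chosen with earlier results of these data known. Reads were estimated from the spacing of low RPKM, with GENCODE vM21 lengths less 200 bases (42 of 43 chains by RefSeq identifier, Col12a1 by symbol). Between 57.7% and 60.7% of low values lay within 0.2 of a whole read. A large part of evenly spread values would also lie there, so depths, read numbers and the limits drawn from them are approximate. Starts of loci were raised by 1. In the tables Col9a3, Col10a1, Col27a1 and Col7a1 share a locus with another gene. Promoter windows are RefSeq sequences of GRCm38.p6. The tools were matplotlib 3.10.9, scipy 1.17.1, pandas 2.3.3 and numpy 2.4.6 under Python 3.11.15, and the steps were tested on simulated data. No value column was left unmapped. Each genotype pair was compared within a compartment and each compartment pair within a genotype, with no test. Other pseudocounts, minimums and scalings were tried. The value of 1 marker gene is not reported here.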

Additional observations from a re-analysis of the deposited data

Results flagged for a closer look

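For 8 of the 25 chains that reached 1 RPKM, the ratio of labelled knockout to control lay on opposite sides of 1 in the 2 compartments, with counting limits leaving out 1 in both. The difference between compartments was not tested, since each group is 1 library. The same rule was not run over all genes, so no background share stands beside this count. Counting limits leave out 1 readily at these depths, and in stroma those of only 3 of the 25 chains reached 1. The ratios in luminal epithelium and stroma were 0.651 and 2.54 for Col1a1, 0.433 and 2.21 for Col1a2, and 0.473 and 1.53 for Col3a1. They were 0.609 and 2.44 for Col6a1, 0.661 and 2.74 for Col6a2, and 0.516 and 3.30 for Col6a3. Col16a1 stood at 0.226 and 1.39, its epithelial value resting on about 7.85 estimated reads in control, and Col18a1 at 0.541 and 1.09. Among the chains below 1 RPKM, Col12a1 met the same description, at 0.328 and 4.66.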

How the results depend on the processing

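No paired analysis was possible because each group is 1 library, and for the same reason no library could be left out. In stroma the count of 7 higher chains became 6 with a pseudocount of 5 RPKM and 6 with a minimum of 5 RPKM, and stayed at 7 under the other alternatives. The stromal median became 0.28 with a pseudocount of 5 RPKM, 0.20 with no minimum and 0.61 with a minimum of 5 RPKM. The stromal ratio of collagen sums, 1.81, was 1.67 after division by the upper quartile, 1.70 without the 50 most abundant genes in the scaling and 1.94 without Col3a1. In luminal epithelium that ratio, 1.27, was 1.13 and 1.07 under the same scalings and 0.959 without Col9a2, which turned its direction. The epithelial count of 3 higher chains became 0 with a pseudocount of 5 RPKM and 0 with a minimum of 5 RPKM, which no chain passed, so that it gave no median. The count of 0 lower chains became 2 with a pseudocount of 0.1 RPKM and 1 with scaling without the 50 most abundant genes. The epithelial median, -0.33, became 0 with no minimum, -0.11 with a pseudocount of 5 RPKM and -0.56 with a pseudocount of 0.1 RPKM. Luminal epithelium against stroma gave medians of -4.38 in control and -5.59 in labelled knockout with a pseudocount of 0.1 RPKM, and -1.19 and -1.15 with no minimum, where 1 chain was higher in control. Asking for 10 estimated reads in both libraries, chosen after seeing the data, left 0 higher chains in labelled knockout, because Col9a2 has about 5.31 reads in stroma. Of 279 values of single chains under alternatives 278 kept their sign, the exception being Col11a1 in stroma at -0.0033 relative to the median of all genes. Most of that count was fixed in advance, since other pseudocounts, minimums and filters cannot change the sign of a chain. Only the scalings and the setting relative to the median of all genes could do so.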

Other observations

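The 18 chains that stayed below 1 RPKM in all 4 libraries reached at most 0.742 RPKM. That value was Col28a1, a von Willebrand factor domain collagen, at 0.742 RPKM in control luminal epithelium, 0.00961 RPKM in luminal epithelium labelled knockout, 0.00493 RPKM in control stroma and listed at 0 in stroma labelled knockout. The control value rests on about 18.9 estimated reads. It was the chain with the lowest q-value in the authors' deposited table, 4.28e-04 in luminal epithelium. That q-value rests on 1 library per genotype and cannot measure variation between mice. Col20a1, a fibril-associated chain, was also higher in luminal epithelium than in stroma, at 0.556 and 0.530 RPKM against 0.0883 and 0.0670 RPKM, in control and labelled knockout.

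Col8a2, a network-forming chain, was at 0.0971 RPKM in control stroma and 0.341 RPKM in stroma labelled knockout, a ratio of 3.51 (limits 2.08 to 6.29). Col12a1, a fibril-associated chain, was at 0.0412 and 0.192 RPKM there, a ratio of 4.66 (limits 2.90 to 7.89), and at 0.201 and 0.0661 RPKM in luminal epithelium. Col19a1 and Col9a1 were listed at 0 in all 4 libraries, and Col2a1, the cartilage fibril chain, was listed at 0 in 3 and at 0.00518 RPKM in luminal epithelium labelled knockout. The others, Col4a3, Col4a4, Col6a5, Col9a3, Col10a1, Col11a2, Col13a1, Col17a1, Col25a1, Col27a1 and Col8a1, reached between 0.0388 and 0.559 RPKM.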
